A study of Homo sapiens with 12 samples.

Results

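Coilin and the SMN complex genes were followed by RNA sequencing in T24 cells, a human line established from bladder cancer. The 10 genes were taken by name from the deposited gene tables, and all 10 were found among the 60504 genes listed. They were COIL, SMN1, SMN2, GEMIN2, DDX20 (the gene of Gemin3), GEMIN4, GEMIN5, GEMIN6, GEMIN7 and GEMIN8. In the knockout comparison, 2 libraries with the treatment label U11 knockout were compared with 2 untreated T24 libraries. In the overexpression comparison, 6 libraries with the label U11 overexpression were compared with 2 other untreated T24 libraries. The methods describe the knockout model as monoclonal cells edited with Cas9 and a pair of guide RNAs, and the overexpression model as monoclonal cells with a stable pcDNA-U11 plasmid, so clonal differences and the label cannot be told apart. Each library labelled U11 overexpression bore 1 of the line labels 79, 86 and 87, which the sources used here do not explain, and each label had 2 libraries. The labels do not say whether replicates were separate cultures, so P-values measure the spread between these libraries, which may be technical. The deposited coordinates are on hg38.

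Spliceosomal small nuclear RNAs (snRNAs) leave the nucleus after transcription, and the SMN complex loads them in the cytoplasm with a ring of Sm proteins at a short uridine-rich site. SMN holds the complex together, Gemin2 holds the Sm proteins, Gemin5 recognises the snRNA, and Gemin6, Gemin7 and Gemin8 form a peripheral module. Coilin is the scaffold of the Cajal body, the nuclear body in which the returning snRNAs mature. U11, the snRNA of the minor spliceosome altered in this study, is one of those cargo RNAs. Its sequence is shown because its Sm site is where the products of these genes act. It is encoded by RNU11 on hg38 at chr1:28648600-28648733, plus strand, and in the GENCODE transcript of 134 bases a search for a uridine-rich Sm-type site found 1 match, at bases 88 to 95, here in capitals.
U11: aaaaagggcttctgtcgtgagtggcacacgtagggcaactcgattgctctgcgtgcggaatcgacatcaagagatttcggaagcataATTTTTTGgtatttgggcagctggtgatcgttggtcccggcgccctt

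In deposited TPM, U11 itself went against the knockout label. The 2 deposited RNU11 entries summed to 21.4 and 23.8 TPM in the untreated libraries (TPM is an abundance scaled for transcript length and to one total per library). The libraries labelled U11 knockout held more, 31.6 and 37.4 TPM. In the overexpression comparison the untreated libraries held 0.0334 and 0.623 TPM, line 79 held 0.183 and 0.412, line 86 held 3.98 and 3.72, and line 87 held 61.9 and 53.6. U11 in line 79 thus fell between the untreated values, and line 79 counts among the libraries labelled U11 overexpression by its label alone. Every direction given for the libraries labelled U11 knockout therefore rests on that label. Per the methods, the knockout clone was selected by quantitative PCR of U11, a measure that is not among the values used here. The set of 4 libraries of the knockout comparison and the set of 8 of the overexpression comparison also stood apart: the 10 most abundant genes took 45.5% to 49.6% of all TPM in the first set and 7.06% to 7.56% in the second. Aligned bases, worked out from coverage and FPKM, ranged from 13.7 to 15.2 and from 9.07 to 15.3 gigabases per library. Keratins 7, 8, 18 and 19 were at 90.3 TPM or more in all libraries, while the uroplakins, which mark mature urothelium, were at 0.437 TPM or less and CDH1 at 0.155 TPM or less. Of 14 epithelial and urothelial markers, 7 had a median of at least 1 TPM in either set. The labels and the methods disagree on library type, with poly(A) RNA in the labels and depletion of ribosomal RNA in the methods. U11 TPM may depend on the library type, which was not tested. In bulk RNA of this kind, fewer cells of a type and less RNA per cell cannot be told apart.

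All 10 genes were expressed in every library, from 3.77 TPM for GEMIN8 to 104 TPM for SMN2. SMN2 and SMN1 had the highest mean TPM in each group. The order depends on the measure, and by deposited coverage (mean aligned bases per position) GEMIN5 stood above both in every library. In the untreated libraries of the knockout comparison its coverage was 240 and 241, against 185 and 209 for SMN2 and 165 and 172 for SMN1. COIL, at a coverage of 123 and 131, stood above GEMIN7, at 95.1 and 96.8. The order below is that of TPM. In the untreated libraries of the knockout comparison SMN2 averaged 53.8 ± 1.03 TPM and SMN1 35.8 ± 0.56 TPM (SD, n = 2), and the libraries of both genes did not overlap. GEMIN5, at 24.8 ± 0.0942 TPM, and GEMIN4, at 23.7 ± 6.17 TPM, overlapped each other. GEMIN7 followed at 21.3 ± 0.107 TPM and lay within the range of GEMIN4. COIL, at 14.1 ± 0.515 TPM, and GEMIN2, at 13.1 ± 1.72 TPM, could not be ordered beyond their spread. GEMIN6 came next at 7.27 ± 0.198 TPM, and GEMIN8 at 6.65 ± 0.28 TPM overlapped DDX20, a DEAD-box helicase, at 6.56 ± 0.292 TPM. In the libraries labelled U11 knockout GEMIN8 was last of the 10 in TPM, below GEMIN6 and DDX20 without overlap. By coverage it was last in the untreated libraries as well, at 9.78 and 9.91. GEMIN6 had a coverage of 48.4 and 55.1 there, and DDX20 of 47.0 and 45.0. The rank of GEMIN8 and its ratios to other members thus depend on the measure.

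**Figure D1:**
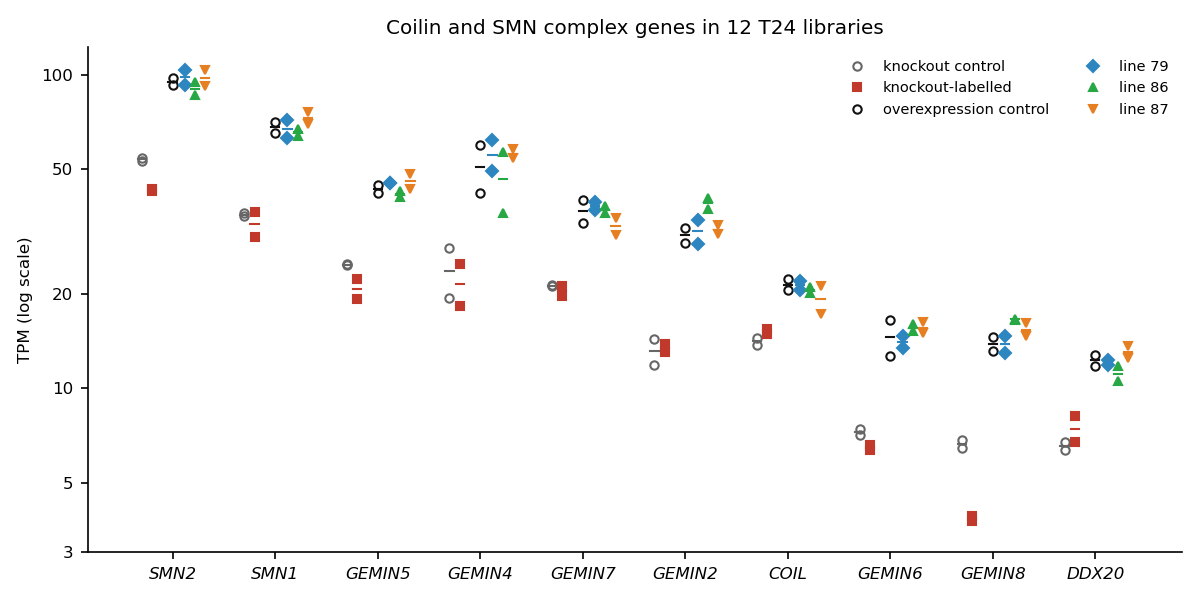
TPM on a log axis of the 10 coilin and SMN complex genes in each of 12 libraries, 1 point per library and a short line at each group mean (2 libraries per group). The libraries labelled U11 knockout sit below their untreated libraries for GEMIN8, at 3.77 and 3.92 against 6.45 and 6.85 TPM, and the 8 libraries of the overexpression comparison lie higher for all 10 genes.

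The untreated T24 libraries of both sets differed for all 10 genes. Mean TPM in the untreated libraries of the knockout comparison was 0.426 times (GEMIN2) to 0.66 times (COIL) that in the untreated libraries of the overexpression comparison, with a median of 0.53. Over the 13792 genes tested in both comparisons the median was 0.507. The library titles of the sets carry different number series, and the sets differ in their most abundant genes. These levels are therefore set side by side with no test, and fold changes below stay within a set. The 10 genes together made up 0.0184% to 0.0214% of all TPM in libraries of the knockout comparison and 0.0379% to 0.0415% in those of the overexpression comparison.

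SMN1 and SMN2 are near-identical copies of the gene for SMN on chromosome 5. SMN1 (ENSG00000172062) lies at chr5:70925030-70953942 and SMN2 (ENSG00000205571) at chr5:70049612-70078522, both on the plus strand. Their GENCODE canonical transcripts are 1482 bases each and differ by an edit distance of 2, and 1033 of 1333 stretches of 150 bases (77.5%) are shared letter for letter. How Stringtie divided reads between the copies is therefore uncertain, and the sum of both is the firmer quantity. The sum was 88.5 and 90.7 TPM in the untreated libraries against 73.5 and 79.1 TPM under the knockout label, below both. In the overexpression comparison it was 158 and 169 TPM in the untreated libraries and had a median of 162 TPM, from 150.1 to 180.4, under the overexpression label, and these groups overlapped. SMN2 made up 59.9% and 60.1% of the sum in the untreated libraries of the knockout comparison and 58.7% and 53.9% in the libraries labelled U11 knockout, against 56.8% to 59.7% under the overexpression label and 57.9% and 58.6% in its untreated libraries.

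The first question was which of these genes differed in the libraries labelled U11 knockout. Only GEMIN8 (ENSG00000046647, chrX:14008279-14029893, minus strand) was differentially expressed, and it fell. GEMIN8 stood at 6.45 and 6.85 TPM in the untreated libraries, against 3.77 and 3.92 TPM under the knockout label. Both labelled libraries lay below both untreated libraries, and the ratio of the means was 0.578. Limma on log2(TPM + 1) put the log2 fold change at -0.66 (95% interval -0.97 to -0.35, standard error 0.12, Benjamini-Hochberg adjusted P = 0.0441). The log2(TPM + 1) scale understates changes of low genes, and the log2 ratio of the mean TPM was -0.79. With the thresholds of the study, P under 0.05 before adjustment and at least 1.5-fold, 11.8% of the 14356 genes tested were called, and 3.15% of the 14356 were called as lower. GEMIN8 was thus 1 of 10 members called, a share near the 11.8% of all genes.

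The call of GEMIN8 held under all 12 alternatives with a test, with log2 fold changes from -0.81 to -0.62. Its adjusted P ranged from 0.0257 to 0.212 over them and was under 0.05 in 6. GEMIN8 had the lowest deposited coverage of the 10 genes (mean aligned bases per position), at 9.78 and 9.91 in the untreated libraries and 5.31 and 5.87 in the labelled ones, against 48.4 and 55.1 for GEMIN6 in the same untreated libraries.

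GEMIN8 is paired with its module partner GEMIN6 here to show the sequence around their RefSeq starts. The deposited GEMIN6 gene spans chr2:38751534-38785000, so its RefSeq window lies inside that gene and not at its upstream end. In the promoter windows of RefSeq (GRCh38.p14, 300 bases around the start), the ETS-type motif CCGGAAG was searched on both strands. It matched 3 times at GEMIN8 (chrX:14029843-14030142, minus strand) and not at GEMIN6 (chr2:38777960-38778259, plus strand), whose window does hold the shorter GGAA. Matches to CCGGAAG are in capitals, and CTTCCGG is the same motif on the other strand.
GEMIN8: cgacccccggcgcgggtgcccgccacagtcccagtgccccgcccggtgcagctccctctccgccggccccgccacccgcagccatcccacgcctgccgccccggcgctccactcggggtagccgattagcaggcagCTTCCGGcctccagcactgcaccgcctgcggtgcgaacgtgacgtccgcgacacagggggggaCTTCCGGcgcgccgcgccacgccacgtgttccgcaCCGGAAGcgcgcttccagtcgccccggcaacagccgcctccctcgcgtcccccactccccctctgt
GEMIN6: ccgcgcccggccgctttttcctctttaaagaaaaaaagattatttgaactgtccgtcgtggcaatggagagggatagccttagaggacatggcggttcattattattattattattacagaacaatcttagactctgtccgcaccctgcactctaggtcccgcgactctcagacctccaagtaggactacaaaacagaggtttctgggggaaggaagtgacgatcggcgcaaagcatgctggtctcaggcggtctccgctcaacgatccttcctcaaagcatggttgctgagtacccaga

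A RefSeq window was found for 8 members, not for SMN1 and SMN2. Members are counted by gene, with a match in any of its windows, while the shares beside them are of windows. GEMIN7 had several windows, and its E-box lay in overlapping ones. At least 1 match to CCGGAAG was found at GEMIN4 and GEMIN8, 2 of the 8, against 10.3% of 35116 windows. The E-box CACGTG was found at GEMIN7 and GEMIN8, against 7.26% of windows, and AAGATGG, a YY1-type motif, at COIL, against 5.84%. CCAAT was found at GEMIN2 and DDX20, against 34.6% of windows, and TATAAA at none of the 8, against 11.5%. A match is a run of letters and not a measured binding site.

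GEMIN6 and GEMIN7, the partners of GEMIN8, were not called. GEMIN6 (ENSG00000152147, chr2:38751534-38785000) had 7.13 and 7.41 TPM in the untreated libraries against 6.6 and 6.35 TPM under the knockout label. These groups did not overlap, but the log2 fold change was -0.15 (95% interval -0.44 to 0.15, limma with Benjamini-Hochberg adjustment, adjusted P = 0.445). GEMIN7 (ENSG00000142252, chr19:45079195-45091524) had 21.2 and 21.4 TPM and then 21.3 and 19.7 TPM, with overlapping groups and a log2 fold change of -0.05 (95% interval -0.32 to 0.21). GEMIN7 overlaps MARK4 and PPP1R37 on the same strand, which were listed at 6.97 to 23.8 and 11.2 to 23.7 TPM, so reads of the 3 genes may be divided unevenly.

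The ratios within the module were set side by side. GEMIN8 stood at 0.304 and 0.32 of the TPM of GEMIN7 in the untreated libraries and at 0.177 and 0.199 in the libraries labelled U11 knockout. Against GEMIN6 it stood at 0.905 and 0.924 and then at 0.571 and 0.617. GEMIN6 stood at 0.336 and 0.347 of GEMIN7 and then at 0.31 and 0.323. None of the 3 ratios overlapped between these groups, and the first and second share the GEMIN8 values. In TPM, 60.2% of all genes tested did not overlap between the same groups, and no such share was worked out for ratios. Under the overexpression label GEMIN8 was 0.349 to 0.523 of GEMIN7 and 0.901 to 1.08 of GEMIN6, and the untreated libraries, at 0.33 and 0.432 and at 0.88 and 1.04, overlapped them. The ratios rest on the same values as the fold changes and were not tested separately.

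**Figure D2:**
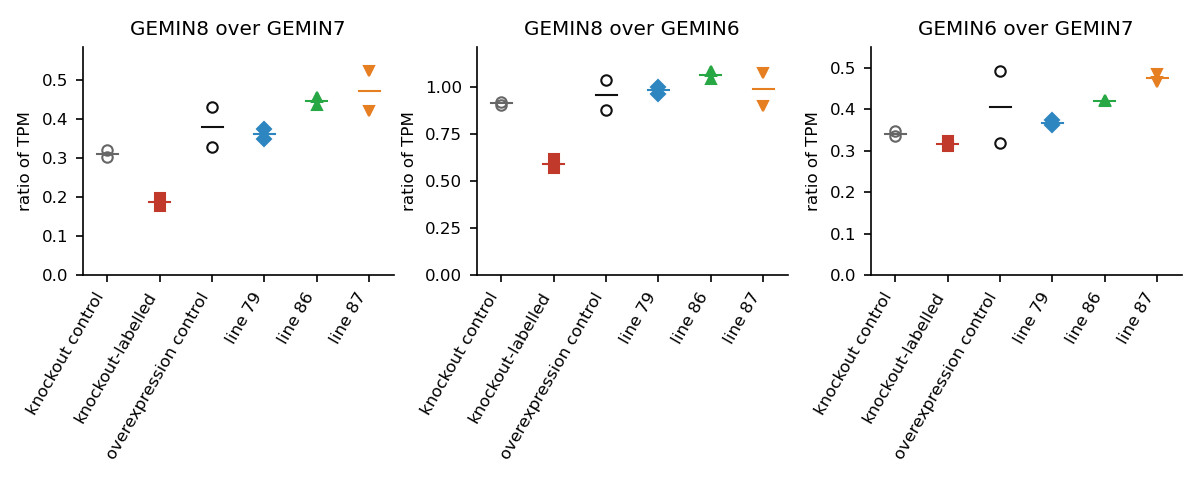
Ratio of TPM between the module genes GEMIN8, GEMIN7 and GEMIN6 in each of 12 libraries, on linear axes from 0, with a line at each group mean (2 libraries per group). Both ratios with GEMIN8 are lowest in the libraries labelled U11 knockout, at 0.177 and 0.199 over GEMIN7 and at 0.571 and 0.617 over GEMIN6.

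Among the core genes, SMN2 was the only other member with an unadjusted P under 0.05 on the TPM as deposited. GEMIN5 also had one with FPKM, median ratio scaling and quantile normalization (log2 fold change -0.34, -0.37 and -0.35), and GEMIN6 with the last 2 (-0.25 and -0.29), all under 1.5-fold. SMN2 stood at 53.0 and 54.5 TPM in the untreated libraries, against 43.2 and 42.6 TPM under the knockout label, without overlap. Its log2 fold change of -0.32 (95% interval -0.54 to -0.09, limma with Benjamini-Hochberg adjustment, adjusted P = 0.093) did not reach 1.5-fold under any of 12 alternatives, and its adjusted P ranged from 0.046 to 0.266. SMN1 had 35.4 and 36.2 TPM and then 30.3 and 36.4 TPM. Its groups overlapped in TPM, with 1 labelled library below and 1 above the untreated ones, and the log2 fold change was -0.10 (95% interval -0.42 to 0.21). In deposited coverage, which is not scaled for depth, SMN1 had 165 and 172 and then 136 and 139, without overlap. GEMIN2 (ENSG00000092208, chr14:39114223-39136973) had 11.9 and 14.3 TPM and then 13.1 and 13.8 TPM, so that the labelled libraries lay inside the range of the untreated ones. Its log2 fold change of 0.04 (95% interval -0.31 to 0.38) turned to -0.079 with median ratio scaling.

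The helicase and its partner did not pass the test either. DDX20 (ENSG00000064703, chr1:111755245-111768016) had 6.77 and 6.35 TPM in the untreated libraries and 6.74 and 8.16 TPM in the labelled ones, overlapping, with a log2 fold change of 0.16 (95% interval -0.20 to 0.52). GEMIN4 (ENSG00000179409, chr17:744414-753999), which binds Gemin3 in the complex, was the most variable member, at 19.4 and 28.1 TPM and then 24.9 and 18.3 TPM. Its interval of -0.73 to 0.48 around a log2 fold change of -0.12 does not exclude a 1.5-fold difference. GEMIN5 (ENSG00000082516, chr5:154887416-154938209), the snRNA-binding subunit, had 24.9 and 24.7 TPM and then 22.3 and 19.3 TPM. Its groups did not overlap, and its log2 fold change was -0.25 (95% interval -0.54 to 0.05, limma with Benjamini-Hochberg adjustment, adjusted P = 0.227).

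COIL (ENSG00000121058, chr17:56938187-56961054), the Cajal body scaffold, was not called. It stood at 13.8 and 14.5 TPM in the untreated libraries, and both labelled libraries, at 15.5 and 15.0 TPM, lay above them. The log2 fold change was 0.10 (95% interval -0.17 to 0.37, limma with Benjamini-Hochberg adjustment, adjusted P = 0.563), and it turned to -0.016 with median ratio scaling. Set against the SMN1 and SMN2 sum, COIL was at 0.156 and 0.16 in the untreated libraries and at 0.211 and 0.189 in the labelled ones.

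Across the 10 genes, 3 log2 fold changes were positive and 7 negative, with a median of -0.11, while the median over all genes tested was 0.11. Relative to that median, 1 gene (DDX20) was above and 9 were below, from -0.77 to 0.05. Of the 10 genes, 5 did not overlap between groups (COIL, SMN2, GEMIN5, GEMIN6 and GEMIN8), against 60.2% of all genes tested. On the TPM as deposited, the 95% interval lay inside 1.5-fold in both directions for 8 of the 10 genes, all but GEMIN4 and GEMIN8. With median ratio scaling SMN2 was at -0.44 and GEMIN5 at -0.37, and their intervals with that scaling are not given here. The direction of the calls over all genes moved with the scaling, with 73.2% of calls higher as deposited and 52.7% after median ratio scaling, where the log2 fold change of GEMIN8 was -0.76.

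Among markers of other cells, CDH5 alone was called in the knockout comparison. The endothelial markers summed to 4.82 and 4.94 TPM in the untreated libraries of the knockout comparison, against 0.103 and 0.132 TPM under the knockout label, through CDH5, while PECAM1 and VWF were below 0.1 TPM in all 4. Leukocyte markers summed to 1.11 to 3.48 TPM and 2.69 TPM, with PTPRC and CD3E below 0.1 TPM, and these sums overlapped. The epithelial and urothelial markers summed to 2096 and 2226 TPM in the untreated libraries and to 1852 and 2129 TPM in the labelled ones. Of the 7 tested, 5 had an unadjusted P under 0.05 and 3 were called, in both directions. KRT19 fell from 158 and 151 TPM to 92.8 and 90.3 TPM and FOXA1 from 18.3 and 18.3 TPM to 8.41 and 10.5 TPM, while GATA3 rose from 2.38 and 2.93 TPM to 5.61 and 4.67 TPM. The part of these markers in the result for GEMIN8 was not tested.

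**Figure D3:**
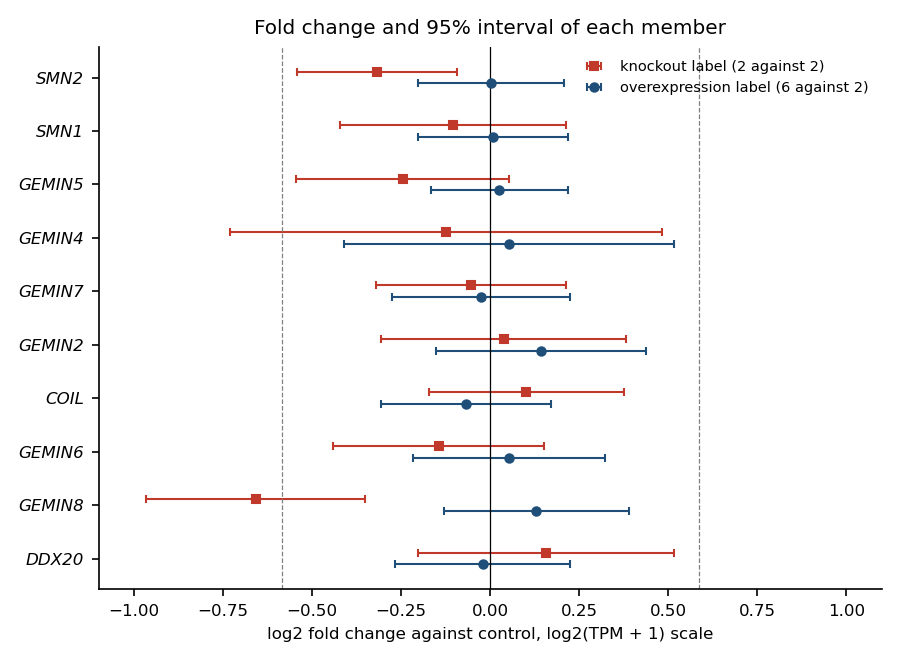
Log2 fold change with its 95% interval from limma, on the log2(TPM + 1) scale, for each gene in the knockout comparison (squares, 2 libraries against 2) and the overexpression comparison (circles, 6 against 2), with dashed lines at 1.5-fold. GEMIN8, at -0.66 in the knockout comparison, is the single point beyond a dashed line. The intervals of the overexpression comparison lie inside the dashed lines, but they count libraries of the same line as separate units.

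The second question was whether the genes differed under the overexpression label. No member was called, against 1.93% of 15768 genes tested, and no member had P under 0.05. All 10 log2 fold changes lay between -0.07 (COIL) and 0.14 (GEMIN2). All 95% intervals lay inside 1.5-fold in both directions, the widest being that of GEMIN4, from -0.41 to 0.52. The fit counted libraries of the same line as separate units, although 16% of all genes differed between lines (limma's F test, adjusted P under 0.05). These intervals may therefore be too narrow to bound the difference between lines and untreated cells. With the mean of each line in place of its libraries, no member was called, and intervals from that fit are not given here. The groups overlapped for all 10 genes, while 9.87% of all genes tested did not overlap. The median over the 10 genes was 0.02 and that over all genes -0.02.

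COIL stood at 20.5 and 22.3 TPM in the untreated libraries and had a median of 20.8 TPM under the overexpression label, from 17.3 (line 87) to 22.1 (line 79). Its log2 fold change was -0.07 (95% interval -0.31 to 0.17, limma with Benjamini-Hochberg adjustment, adjusted P = 0.952). U11 ranged from 0.183 to 61.9 TPM in the same 6 libraries.

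The SMN genes gave the smallest differences. SMN1 had 65.3 and 71.0 TPM in the untreated libraries and 62.8 to 76.4 TPM with a median of 68.4 under the label, a log2 fold change of 0.01 (95% interval -0.20 to 0.22). SMN2 had 92.6 and 97.7 TPM and 86.2 to 104 TPM with a median of 93.7, a log2 fold change of 0.00 (95% interval -0.20 to 0.21). The untreated libraries of both genes lay inside the range of the 6 libraries labelled U11 overexpression.

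The Gemins also overlapped. GEMIN2 had 29.1 and 32.5 TPM in the untreated libraries and 28.9 to 40.6 TPM with a median of 33.8 under the label (log2 fold change 0.14, 95% interval -0.15 to 0.44). DDX20 had 12.8 and 11.8 TPM and 10.6 to 13.7 TPM with a median of 12.1 (log2 fold change -0.02, 95% interval -0.27 to 0.22). GEMIN4, with 59.6 and 42.1 TPM and 36.2 to 61.9 TPM with a median of 55.7, again spread most (log2 fold change 0.05). The 3 genes had untreated values inside the range of the 6 labelled libraries.

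GEMIN5 had 44.7 and 42.1 TPM in the untreated libraries and 40.7 to 48.2 TPM with a median of 44.2 under the label (log2 fold change 0.03, 95% interval -0.17 to 0.22). In the peripheral module, GEMIN6 had 12.7 and 16.6 TPM and 13.4 to 16.3 TPM with a median of 15.1 (log2 fold change 0.05, 95% interval -0.22 to 0.32). GEMIN7 had 39.9 and 33.7 TPM and 30.9 to 39.3 TPM with a median of 36.7 (log2 fold change -0.03, 95% interval -0.28 to 0.22). For GEMIN6 the untreated libraries lay on either side of all 6 labelled libraries, and for GEMIN7 1 of them lay above all of these. GEMIN8 had 13.2 and 14.6 TPM and 13.0 to 16.7 TPM with a median of 15.4 (log2 fold change 0.13, 95% interval -0.13 to 0.39), with 5 of the 6 labelled libraries above both untreated ones, among them all 4 of lines 86 and 87.

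By the numbers in their titles, the libraries of the overexpression comparison came from 2 series, each with 1 library of each line and 1 untreated library (replicate 3 in the first series and replicate 4 in the second). Within the first and the second series, with 3 libraries against 1 and no test, the log2 fold changes were 0.19 and 0.07 for GEMIN8, 0.21 and 0.07 for GEMIN2 and -0.09 and -0.05 for COIL. GEMIN6, at 0.20 and -0.10, and GEMIN7, at -0.17 and 0.12, changed sign between the series, as did DDX20 at -0.12 and 0.08, GEMIN5 at -0.05 and 0.10, SMN2 at -0.04 and 0.04 and GEMIN4 at -0.02 and 0.12. SMN1 was at 0.00 and 0.01.

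The third question was whether the lines, which differed in U11 TPM, differed in these genes. No member was called in line 79, 86 or 87 against the untreated libraries, where 7.95%, 3.6% and 5.13% of genes were called. The member with the largest difference was GEMIN2 in line 86, at 40.6 and 37.3 TPM, above both untreated libraries and all 4 libraries of the other lines. Its log2 fold change was 0.33 (95% interval 0.06 to 0.60, limma with Benjamini-Hochberg adjustment, adjusted P = 0.267). GEMIN8 in line 86, at 16.7 and 16.5 TPM, was also above both untreated libraries, with a log2 fold change of 0.25 (95% interval 0.00 to 0.49, limma with Benjamini-Hochberg adjustment, adjusted P = 0.364). Both had an unadjusted P under 0.05 and neither reached 1.5-fold. Line 86 was intermediate in U11 TPM, and in line 87, which had the most, GEMIN2 was at 33.2 and 31.0 TPM and GEMIN8 at 16.1 and 14.7 TPM.

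COIL was at 20.6 and 22.1 TPM in line 79, at 20.1 and 21.1 in line 86 and at 17.3 and 21.3 in line 87. The libraries of the 3 lines overlapped, and the log2 fold changes were 0.00, -0.05 and -0.15, the last with a 95% interval of -0.42 to 0.12. Among the lines, GEMIN7 was lowest in line 87, at 30.9 and 34.9 TPM, which overlapped the untreated libraries, with a log2 fold change of -0.16 (95% interval -0.41 to 0.10). SMN1, SMN2, DDX20, GEMIN4, GEMIN5 and GEMIN6 ranged between -0.14 and 0.16 over the 3 lines, both ends being GEMIN4, which in line 86 stood at 57.0 and 36.2 TPM.

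The difference between lines was tested itself with limma's F test in the same fit. No member passed an adjusted P of 0.05, which 16% of all genes did. GEMIN2 had the smallest value (Benjamini-Hochberg adjusted P = 0.19), followed by GEMIN8 (adjusted P = 0.279). In the pairwise contrasts 3 had an unadjusted P under 0.05, all with line 86. GEMIN2 was lower in line 79 than in line 86 by a log2 fold change of -0.29 (limma with Benjamini-Hochberg adjustment, adjusted P = 0.148) and higher in line 86 than in line 87 by 0.27 (adjusted P = 0.236). GEMIN8 was lower in line 79 than in line 86 by -0.25 (adjusted P = 0.175).

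**Figure D4:**
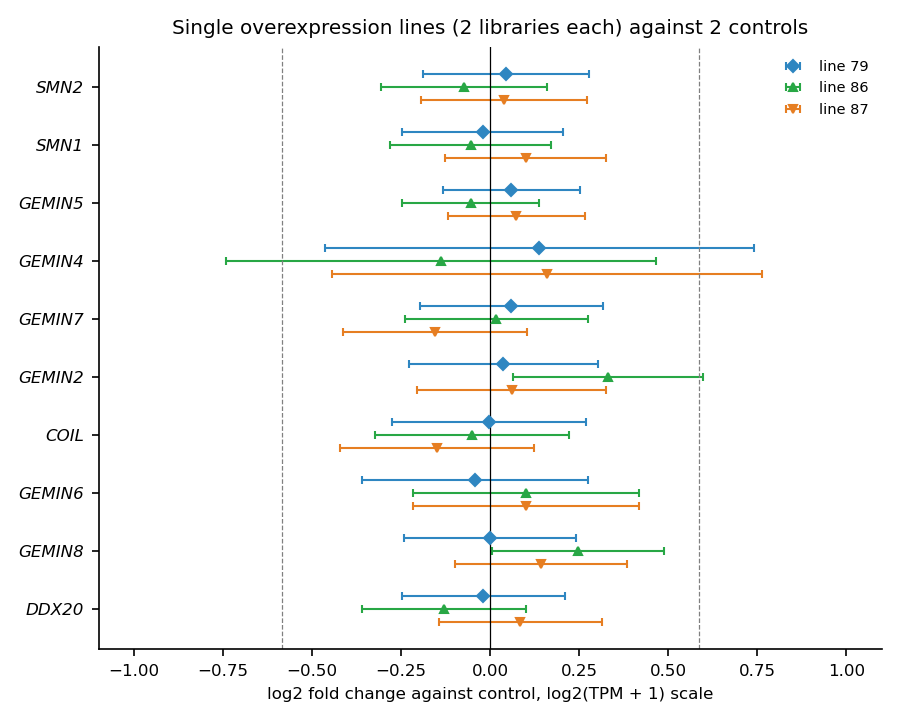
Log2 fold change with its 95% interval from limma, on the log2(TPM + 1) scale, for each gene in lines 79, 86 and 87 (2 libraries each) against the 2 untreated libraries, with dashed lines at 1.5-fold. The intervals of GEMIN2 (0.33) and GEMIN8 (0.25) in line 86 lie above 0, and GEMIN4 has the widest intervals.

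The genes around the SMN complex were then counted in lists. Of the 8 Sm proteins, which form the ring that the complex assembles, none was called in the knockout comparison (5 higher, 3 lower, median 0.03). The largest difference was that of SNRPN, at 33.0 TPM in the untreated libraries and 42.3 TPM in the labelled ones (log2 fold change 0.36, 95% interval -0.05 to 0.77). It was 0.56 without untreated replicate 1 and 0.17 without untreated replicate 2. A list of 8 genes for Sm methylation and delivery also held STRAP and the Sm-like LSM10 and LSM11. Of these 8, 5 were higher and 3 lower, with a median of 0.01, and 1 was called. This was CLNS1A, the gene of the Sm chaperone pICln, which fell from 44.3 and 59.4 TPM to 30.3 and 29.2 TPM (log2 fold change -0.77, limma with Benjamini-Hochberg adjustment, adjusted P = 0.0578). The groups of CLNS1A did not overlap, but its log2 fold change was -0.56 and no longer 1.5-fold without untreated replicate 2. Of 8 genes of snRNA export, capping and import, none was called (4 higher, 4 lower, median -0.04). XPO1, the export receptor, was the furthest, at 81.5 TPM in the untreated libraries and 111 TPM in the labelled ones (log2 fold change 0.46, limma with Benjamini-Hochberg adjustment, adjusted P = 0.131), and it was 0.26 without untreated replicate 1 and passed both thresholds at 0.65 without untreated replicate 2.

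Of 19 further Cajal body proteins, 7 were higher and 12 lower, with a median of -0.04, and 1 was called. NOLC1, which encodes the coilin-binding phosphoprotein Nopp140, fell from 63.9 and 82.7 TPM to 38.0 and 40.2 TPM, without overlap (log2 fold change -0.88, 95% interval -1.26 to -0.50, limma with Benjamini-Hochberg adjustment, adjusted P = 0.0386). Of 20 genes of snRNA transcription and end processing, 8 were higher and 12 lower, with a median of -0.04, and 1 was called. INTS8, an Integrator subunit, fell from 28.7 and 31.7 TPM to 14.9 and 20.2 TPM, without overlap (log2 fold change -0.77, adjusted P = 0.064). Without replicate 2 of the libraries labelled U11 knockout, INTS8 was at -0.56 and under 1.5-fold. The 3 calls lie among the 63 genes of all these lists, against 11.8% of all genes tested. The Sm proteins and the genes of snRNA export, capping and import had no call. Every list median lay below the median of 0.11 over all genes tested.

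With all 6 libraries labelled U11 overexpression together, none of the 63 genes of these 5 lists was called. The furthest in each list were SNRPN (0.26), LSM10 (-0.16), KPNB1 (-0.18), NOP10 (-0.26) and INTS6 (-0.38), all as log2 fold changes with P over 0.05. List medians lay between -0.07 and 0.02, with -0.02 over all genes. SNRPN rested on its untreated libraries, at 46.2 and 75.2 TPM, and was at 0.61 without untreated replicate 3 and at -0.08 without untreated replicate 4.

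Read line by line, 1 of the 63 genes was called in line 79, 1 in line 86 and none in line 87. Over all genes tested, 7.95%, 3.6% and 5.13% were called in these lines. INTS6, an Integrator subunit, stood at 37.4 and 35.3 TPM in the untreated libraries and fell to 23.8 and 18.8 TPM in line 79 (log2 fold change -0.75, 95% interval -1.08 to -0.42, limma with Benjamini-Hochberg adjustment, adjusted P = 0.0213). In lines 86 and 87 it stood at 41.4 and 34.3 and at 25.8 and 27.4 TPM. SNAPC4, a subunit of the snRNA promoter-binding SNAPc, stood at 17.0 and 15.8 TPM in the untreated libraries and fell to 10.4 and 9.36 TPM in line 86 (log2 fold change -0.68, 95% interval -0.91 to -0.45, adjusted P = 0.027). Its values in lines 79 and 87 were 18.9 and 17.6 and 17.5 and 16.0 TPM. Both called lines lay below all other libraries of the comparison for that gene, and both calls held under the 5 alternatives tried for single lines. CDH5 also differed in line 79, at 34.1 and 32.2 TPM against 3.43 and 3.08 TPM in the untreated libraries, and its part in the result for INTS6 was not tested.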

How the data were processed

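RNA-seq of T24 cells was available for 12 libraries, grouped by treatment label and line label. Per the methods, the authors trimmed reads with fastp, aligned them to hg38 with Hisat2 and ran Stringtie; versions are not given in the sources used here. The authors deposited a gene table per library with TPM, FPKM and coverage (a signal, the mean aligned bases per position). Read counts were not used here, so DESeq2, named in the methods, was not run, and TPM keeps no depth.

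For each comparison, genes that reached 1 TPM in 2 libraries or more entered the test. Limma 3.58.1 (lmFit, eBayes with trend, R 4.3.3) was fitted on log2(TPM + 1) over all of them. Calls took an unadjusted P under 0.05 and 1.5-fold, with Benjamini-Hochberg adjusted P beside them. Lines were contrasted in one fit of 8 libraries. Values were listed and drawn with Python 3.11.15 (pandas 2.3.3, numpy 2.4.6, matplotlib 3.10.9). The code was tested on simulated data. Promoters are from RefSeq, U11 and the SMN transcripts from GENCODE.

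The 10 genes and the lists were chosen with earlier results of these data known. All 10 were named, and of each list every called gene, or else the one with the largest absolute log2 fold change. Alternatives were a pseudocount of 0.1, FPKM, median ratio scaling, quantile normalization, other filters, no trend, adjusted P, blocks, line means, single number series, coverage for levels, and each library left out in turn.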

Additional observations from a re-analysis of the deposited data

How the results depend on the processing

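Of the comparisons' results, GEMIN8 in the knockout comparison kept its direction and call under every alternative with a test, and no member was called under the overexpression label under any. With adjusted P under 0.05 beside 1.5-fold, 984 genes were called in the knockout comparison and 26 in the overexpression comparison, where FPKM gave 173 and a filter of 1 TPM in every library 175. FPKM gave 790, 322 and 456 calls in lines 79, 86 and 87. The median of the 10 genes in the knockout comparison was -0.21 with FPKM, -0.24 with median ratio scaling and -0.21 with quantile normalization; these settings also moved the median of all genes toward 0. COIL turned to -0.016 and -0.0089 with median ratio scaling and quantile normalization, and GEMIN2 to -0.055, -0.079 and -0.087 with FPKM, median ratio scaling and quantile normalization. DDX20 under the overexpression label turned to 0.0074 with quantile normalization. With coverage in place of TPM, SMN1 and SMN2 held 31.9% of the members' sum.

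Leaving out 1 library at a time, which in the groups of 2 leaves a lone library assumed to vary like the others, gave ranges that crossed 0 in the knockout comparison for SMN1 (-0.23 to 0.024), GEMIN2 (-0.087 to 0.16) and GEMIN4 (-0.38 to 0.13). Under the overexpression label they did so for SMN1 (-0.051 to 0.066), SMN2 (-0.035 to 0.041), DDX20 (-0.072 to 0.029), GEMIN4 (-0.19 to 0.30), GEMIN5 (-0.017 to 0.068), GEMIN6 (-0.13 to 0.23), GEMIN7 (-0.14 to 0.091), SNRPN (-0.083 to 0.61) and KPNB1 (-0.42 to 0.060). The cause of these turns was not tested. None of these genes was called in any of these fits except SNRPN, which passed both thresholds at 0.61 without untreated replicate 3.

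Libraries with the same replicate number in the knockout comparison shared only a number (correlation of their deviations 0.0244 over 14356 genes). With the replicate block 1706 genes were called, and GEMIN8 was still called. The block on number series in the overexpression comparison gave 284 calls and no member. With 2 libraries in most groups, the 95% intervals in the report set the size of difference that could be detected. The intervals of the overexpression comparison count libraries of the same line as separate units and may be too narrow.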
